A study of Mus musculus with 6 samples.

Results

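The DOCK proteins are large guanine nucleotide exchange factors, which switch the small GTPases Rac and Cdc42 from their GDP-bound to their GTP-bound form. The family was followed here through 9 mouse genes: Dock1, Dock2, Dock3, Dock4, Dock5, Dock6, Dock8, Dock9 and Dock10. Every non-control probe whose gene name in the array files equals one of these symbols was taken, which gave 15 of the 55681 probes on the array. The family was chosen by the difference between the groups at the single Dock5 probe, which was clearly lower in one of them, so the Dock5 values are given as a description with no test. The rule named no numerical threshold.

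Total RNA from the primary somatosensory cortex of C57BL/6 mice at postnatal day 7 was read on single-colour arrays, 1 array per sample. All 6 samples carried floxed Lhx2 alleles, called Lhx2f/f. The 3 controls had no Cre in their label, and the 3 samples labelled cKO were Lhx2f/f;Nex-Cre. Nex-Cre is a Cre recombinase expressed from the Neurod6 (Nex) locus in young excitatory neurons of the cortex, so glia, vessels and most inhibitory neurons of the tissue are outside its main domain. Lhx2 encodes a LIM-homeodomain transcription factor. Neither separate animals nor pooling is stated in the labels, so every p-value measures only the spread between these samples.

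DOCK proteins carry out exchange through a DHR2 domain rather than through the Dbl-homology domain of most other exchange factors for these GTPases. The A and B subfamilies, which hold Dock1, Dock2 and Dock5 and then Dock3 and Dock4, act mainly on Rac and work with ELMO scaffold proteins. The C subfamily, with Dock6 and Dock8 here, has been linked to Rac and Cdc42, and the D subfamily, with Dock9 and Dock10, to Cdc42. In the brain the family is known for work in neurite growth, axon guidance, spine formation and myelination, and Dock2 and Dock8 are best known from blood and immune cells.

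The probes are 60 bases long, with a GC content of 35.0% to 55.0%, and 6 of the 15 have a stop codon in all 3 reading frames. The first 30 bases of the Dock5 and Dock8 probes are shown because the largest differences of the family rest on them. The Dock5 probe maps to chr14:68370263-68370322 (minus strand, mm9) and starts at base 9997 of NM_177780. It has no open reading frame, and it shares no run of 16 bases or more with another probe of the array. The Dock8 probe maps to chr19:25275989-25276048 (plus strand, mm9) and starts at base 6876 of NM_028785. The Dock2 probes are shown whole because they differed in sign. They start at bases 2076 and 5191 of NM_033374, have 1 open frame each, and have no genome position in the files. All are written 5′ to 3′ as the array files give them, with no letters in capitals.
Dock5 probe A_52_P88983, first 30 bases: tccttcaccatgagtttataacttactggg
Dock8 probe A_51_P483511, first 30 bases: aaccattttccaatatatctgtgagaaaaa
Dock2 probe A_66_P138212: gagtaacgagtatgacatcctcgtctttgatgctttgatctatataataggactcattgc
Dock2 probe A_51_P114917: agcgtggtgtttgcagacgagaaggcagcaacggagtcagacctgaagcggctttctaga

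Processed signals reached 892 to 1067 intensity units at their 75th percentile over the 6 arrays, and 86.7% to 91.1% of the non-control spots were well above background. The probe for Lhx2 itself (chr2:38224933-38224992, mm9) went against the label: its log2 signal was 4.43, 4.55 and 4.77 on the arrays labelled cKO and 3.49, 3.50 and 3.44 on the control arrays, a 2.15-fold higher signal (limma, adjusted p = 0.088). The labels do not give the part of Lhx2 that Cre removes, and a probe outside that part checks nothing. The arrays are therefore called by their label throughout, and every direction below rests on that label. The Y-linked gene Ddx3y was above background on control arrays 1 and 3 and on none of the others. All 6 arrays lay on 1 slide in 1 scan.

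Dock5, an A-subfamily exchange factor for Rac, was the one family member with a large difference. Its processed intensity was 253, 273 and 434 on the 3 arrays labelled cKO and 1333, 1292 and 1046 on the 3 control arrays. All 3 arrays labelled cKO lay below every control array. On the log2 scale relative to each array's 75th percentile the signal was -1.97, -1.74 and -1.25 against 0.34, 0.28 and 0.23. The means were -1.65 ± 0.37 and 0.28 ± 0.05 (SD, n = 3 each), so the 3 arrays labelled cKO spread more widely than the controls while the gap between the groups was several times either spread.

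The log2 difference of Dock5, labelled cKO minus control, was -1.94 (SE 0.19), which is a 3.82-fold lower signal. By this difference the probe was number 11 from the lowest among 50030 tested probes, of which 131 lay below -1. Since the gene was picked for this value, its place describes the array and is no evidence for it. In tissue RNA, fewer cells of a type and less RNA per cell cannot be told apart, for Dock5 or for any gene below.

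The Dock5 difference was also measured within rows of the slide. Rows 1 and 2 each held 1 array of either group, and the difference was -2.08 within row 1 and -1.52 within row 2. The only array labelled cKO in the column of the controls lay -2.25 from the control mean. With the row as a linear term the difference was -1.90. The Y-linked signal was high on control arrays 1 and 3 only. With it as a term, the arrays labelled cKO were therefore set against control replicate 2 alone, and the difference was -1.93. Over all 22 other ways of processing or of choosing arrays it stayed below 0, between -2.14 and -1.52. All of these values reuse the arrays on which Dock5 was picked as clearly lower, so the kept sign is no evidence for the difference. The range shows only how far its size moved with the processing and the choice of arrays.

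**Figure D1:**
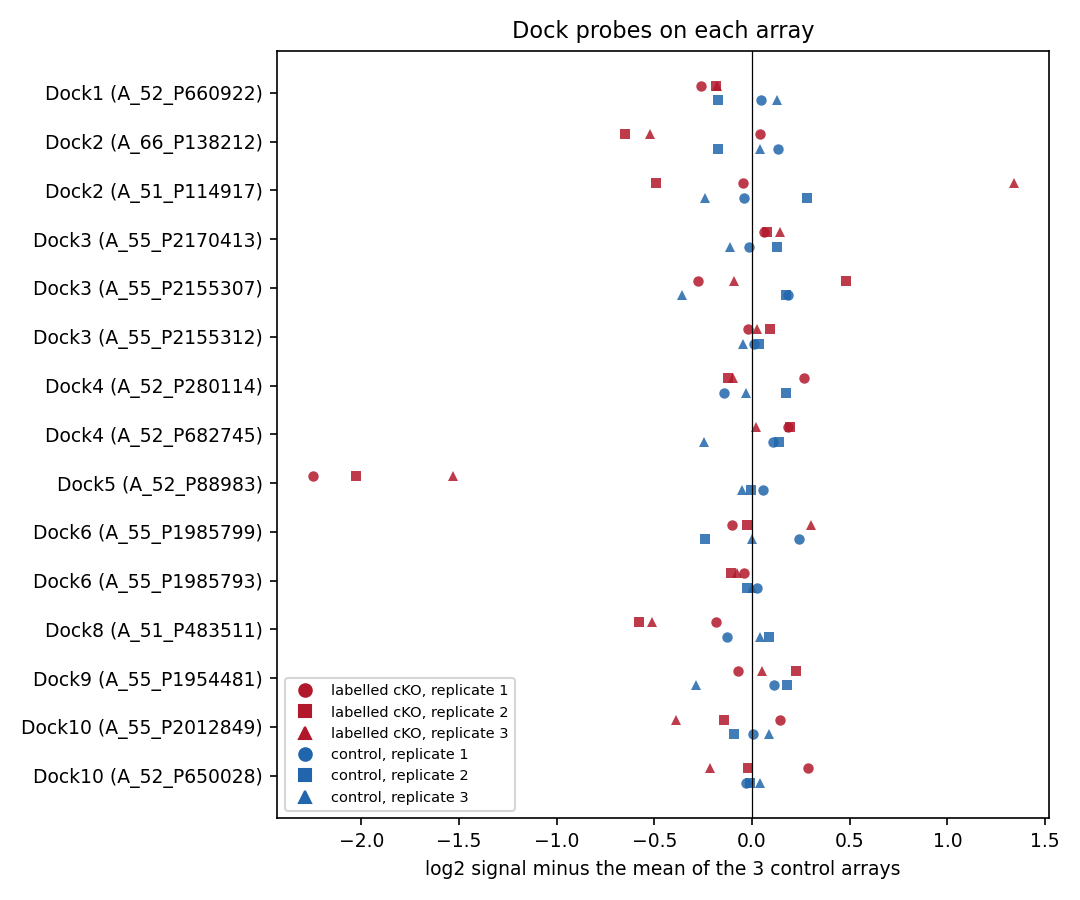
Log2 signal of each of the 15 Dock probes on each array, minus the mean of the 3 control arrays for that probe; red marks are the arrays labelled cKO, blue marks the controls, and the shape gives the replicate. The Dock5 probe stands alone at the left, with its arrays labelled cKO at -2.25, -2.03 and -1.53, while the other probes scatter around 0 apart from 1 array of the second Dock2 probe.

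The other 14 probes, which cover 8 genes, differed between the groups by -0.42 to 0.27 on the log2 scale, with standard errors of 0.08 to 0.45. Of these, 5 were lower and 9 higher on the arrays labelled cKO, while 44.4% of all tested probes were lower. Over all 15 probes the median difference was 0.02, equal to the 0.02 over all tested probes, whose middle range ran from -0.09 to 0.11. By limma with Benjamini-Hochberg adjustment over the 50030 probes, 0 of the 14 had an adjusted p under 0.05, against 0% of all tested probes. Their lowest adjusted p was 0.562, for Dock8. At an unadjusted p under 0.05, 1 of 14 was lower, also Dock8, against 3.9% of all tested probes, and 0 of 14 were higher, against 2.9%. The Dock8 probe passed the background filter mainly through the controls, where it was higher, so this 1 call is no evidence for a difference. The 95% intervals differed in width from probe to probe: the narrowest belonged to the bright Dock6 probe, from -0.27 to 0.13, and the widest to a dim Dock2 probe, from -0.81 to 1.34.

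In 4 of the 15 probes every array labelled cKO lay below every control array, against 5.89% of all tested probes. They belonged to Dock5, Dock1, Dock6 and Dock8. The reverse, with every array labelled cKO above every control, was found for 0 of 15 against 6.82% of all tested probes. Of the 4, Dock5 chose the family and Dock8 was above background mainly in the group where it was higher. Of the other two, Dock6 differed by less than 0.1 on the log2 scale, and Dock1 kept its groups apart by a gap that closed under median centring. The count of 4 was 2 under that scaling, with Dock5 and Dock8 left, and 3 under quantile normalization.

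**Figure D2:**
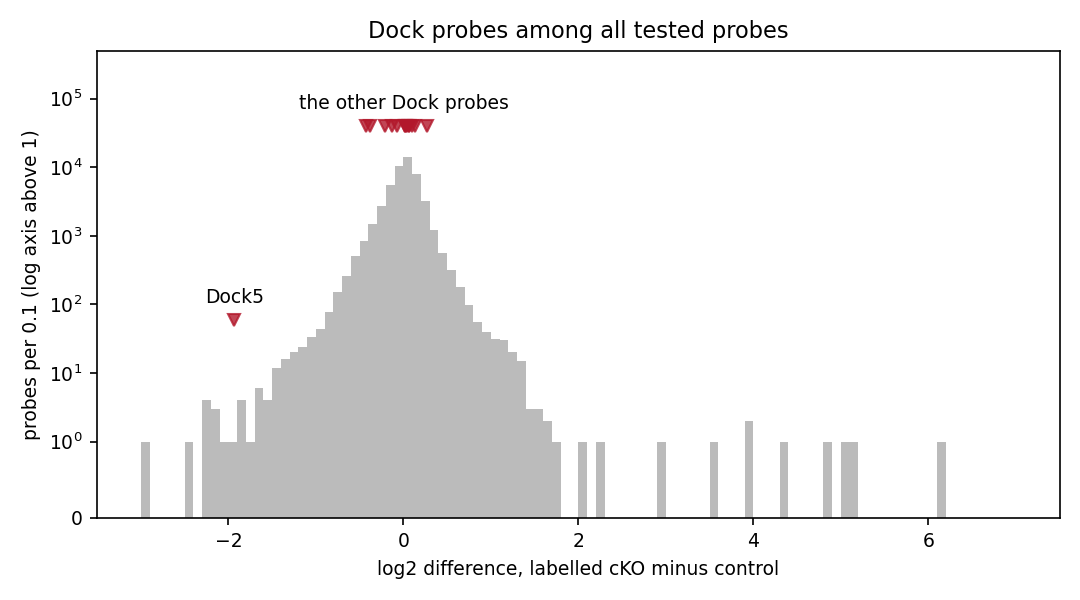
Distribution of the log2 difference, labelled cKO minus control, over the 50030 tested probes in bins of 0.1, with the count on an axis that is logarithmic above 1; triangles mark the Dock probes at their own differences, and their height carries no value. Dock5 at -1.94 lies in the thin lower tail, and the other 14 probes lie between -0.42 and 0.27, within the bulk of the array.

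Dock1, the founding member of the A subfamily and a partner of ELMO and Crk proteins in engulfment and cell migration, gave -0.12, -0.04 and -0.04 on the arrays labelled cKO and 0.19, -0.03 and 0.27 on the controls. Control replicate 2 nearly met the arrays labelled cKO, and the other 2 controls lay higher. The difference was -0.21 (SE 0.11, interval -0.47 to 0.05, adjusted p = 0.852 by limma), and within slide row 2 it was -0.01. The probe (A_52_P660922) maps to chr7:142365246-142365305 on the plus strand of mm9.

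Dock2, the A-subfamily member of lymphocytes and microglia, was dim and its probes disagreed. The probe at base 2076 read -5.68, -6.37 and -6.25 on the arrays labelled cKO and -5.59, -5.89 and -5.68 on the controls, a difference of -0.38 (SE 0.20, adjusted p = 0.851 by limma). It was well above background on 1 of 3 arrays labelled cKO and on 3 of 3 controls, and with the normexp background correction its difference was -0.02. The probe at base 5191 read -4.44, -4.88 and -3.05 against -4.43, -4.11 and -4.63, a difference of 0.27 (SE 0.45). Its high value came from replicate 3 of the arrays labelled cKO, with an intensity of 124 against 31.0 to 61.8 on the other 5 arrays, and the probe at base 2076 showed no such rise on that array. Without that array the difference at base 5191 was -0.27.

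The B subfamily, made of Dock3 and Dock4 in this array's naming, had 5 probes, and in none of them did the difference exceed its standard error. Dock3 is a largely neuronal Rac exchange factor that binds WAVE proteins and has been tied to axon growth. Its brightest probe (A_55_P2155312, chr9:106795157-106795216, minus strand, mm9) read 3.75, 3.87 and 3.80 on the arrays labelled cKO and 3.78, 3.81 and 3.73 on the controls, a difference of 0.03 (SE 0.09, interval -0.18 to 0.24). These 6 values interleave. The other Dock3 probes, A_55_P2155307 and A_55_P2170413, differed by 0.04 (SE 0.24) and 0.09 (SE 0.10).

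Dock4, a Rac exchange factor of dendrites and spines, was read by a pair of probes. Probe A_52_P682745 gave 1.18, 1.19 and 1.02 on the arrays labelled cKO and 1.10, 1.14 and 0.75 on the controls, a difference of 0.13 (SE 0.13). The groups overlapped, and the lowest array was control replicate 3. Its sequence shares a run of 16 bases with a probe of Fbrsl1. Probe A_52_P280114 (chr12:41570886-41570945, plus strand, mm9) differed by 0.01 (SE 0.15).

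In the C subfamily, Dock6 has been studied in axon growth of sensory neurons and Dock8 in the migration and synapses of lymphocytes. The Dock6 probe at chr9:21604646-21604705 (A_55_P1985793, minus strand, mm9) read 1.82, 1.76 and 1.79 on the arrays labelled cKO and 1.89, 1.84 and 1.87 on the controls. The groups did not overlap, but the difference was only -0.07 (SE 0.08, interval -0.27 to 0.13). The other Dock6 probe (A_55_P1985799, from AK145109) differed by 0.06 (SE 0.17) with overlapping groups, and within rows 1 and 2 it gave -0.27 and 0.54.

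Dock8 read -5.73, -6.13 and -6.06 on the arrays labelled cKO and -5.67, -5.46 and -5.51 on the controls. The arrays labelled cKO lay lower without overlap, yet replicate 1 stood close to the control range. The difference was -0.42 (SE 0.14, interval -0.75 to -0.10), a 1.34-fold lower signal with an adjusted p of 0.562 by limma. The probe was well above background on 1 of 3 arrays labelled cKO and 3 of 3 controls, its intensities were 13.1 to 24.2, and with the normexp correction the difference was -0.06.

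The D subfamily, whose members act on Cdc42 and are also called zizimins, showed overlapping groups in all 3 probes. Dock9, a Cdc42 exchange factor linked to dendrite growth, read -0.35, -0.05 and -0.23 on the arrays labelled cKO and -0.17, -0.10 and -0.57 on the controls, a difference of 0.07 (SE 0.15) for probe A_55_P1954481 at chr14:121941289-121941348 on mm9. Dock10, linked to spine formation and to lymphocytes, was read by probes A_55_P2012849 and A_52_P650028. The first gave -2.66, -2.94 and -3.19 against -2.79, -2.89 and -2.71, a difference of -0.13 (SE 0.15). The second gave -1.36, -1.66 and -1.86 against -1.68, -1.65 and -1.60, a difference of 0.02 (SE 0.14). On both probes the arrays labelled cKO ran from the highest to the lowest value of all 6, with replicate 1 high and replicate 3 low.

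Dock11, a D-subfamily gene outside the list, was read by 2 probes, which differed by -0.18 (SE 0.11) and -0.17 (SE 0.12) with overlapping groups.

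Probes near Dock5 on chromosome 14 gave smaller differences. Within 500 kb on mm9 there were 11 other tested probes, with differences from -0.70 to 0.34 and a median of 0.00. Of these, 6 were lower and 5 higher. The closest were Gnrh1, the gene of gonadotropin-releasing hormone, at 0.13 (SE 0.15) and -5.90 kb, and Kctd9 at -0.04 (SE 0.14) and -10.1 kb. Only Nefm, a neurofilament subunit, had an unadjusted p under 0.05, at -0.59 (SE 0.22), while its neighbour and fellow subunit Nefl gave 0.16 (SE 0.20). These 4 genes are named by their position or after their values were seen.

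**Figure D3:**
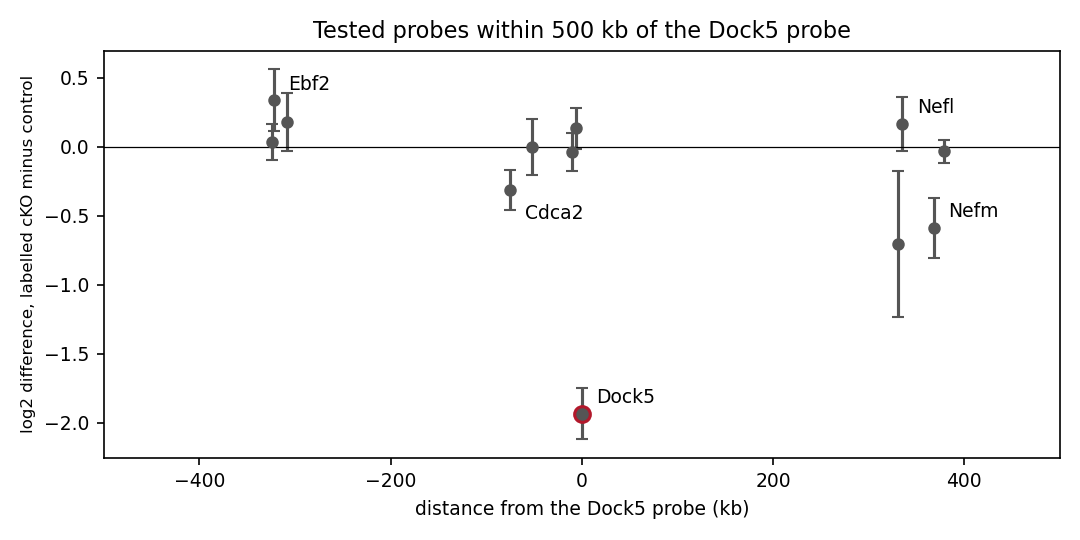
Log2 difference, labelled cKO minus control, of the tested probes within 500 kb of the Dock5 probe, against distance in kb on mm9. Bars are 1 standard error, and the larger red mark is the Dock5 probe. Dock5 lies at -1.94, and the 11 others lie between -0.70 and 0.34.

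The genes that work with the family were read by the brightest probe of each gene, in a fit over 32697 genes. In that fit, limma called 0.00612% of all genes at an adjusted p under 0.05 and none of the listed genes. At an unadjusted p under 0.05, 4.35% of all genes were lower and 3.19% higher. The median difference over all genes was 0.02.

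Among 12 direct partners of DOCK proteins, such as the ELMO scaffolds and Crk adaptors, the median difference was -0.04, with 1 gene lower at an unadjusted p under 0.05 and 0 higher. That gene was Wipf1, a WASP-binding protein reported to link Dock8 to actin, at -0.31 (SE 0.10). Elmo3 gave -0.25 (SE 0.10), Rhog -0.13 (SE 0.08) and Bcar1, the p130Cas scaffold, -0.10 (SE 0.09). The ELMO genes best known from brain, Elmo1 and Elmo2, gave 0.01 (SE 0.11) and -0.06 (SE 0.10), chosen after their values were seen.

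The other large family of exchange factors for Rac and Cdc42, the Dbl type, had 30 tested members with a median of -0.03. Of these, 3 were lower and 1 higher at an unadjusted p under 0.05. Vav1, an exchange factor of blood cells, read -0.74, -0.96 and -1.48 on the arrays labelled cKO and -0.37, -0.39 and -0.48 on the controls. The groups did not overlap, and the difference was -0.65 (SE 0.19, adjusted p = 0.419 by limma). Prex2 gave -0.50 (SE 0.16), Fgd2 -0.49 (SE 0.20) and Farp1, an exchange factor of synapses, 0.26 (SE 0.10).

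The GTPase-activating proteins, which switch Rac and Cdc42 off, had 17 of 18 members tested, with a median of 0.04. Of these, 3 were lower and 1 higher at an unadjusted p under 0.05. Arhgap15, a Rac-specific member, read -1.30, -1.30 and -1.22 on the arrays labelled cKO and -0.33, -0.32 and -0.74 on the controls, without overlap. Its difference was -0.81 (SE 0.13, adjusted p = 0.159 by limma). Chn2, which encodes beta-chimaerin, gave -0.70 (SE 0.15, adjusted p = 0.274 by limma), Arhgap31 -0.25 (SE 0.10) and Srgap1 0.34 (SE 0.14). Among 30 effectors and actin regulators downstream of Rac and Cdc42 the median was 0.02, with 2 lower and 0 higher at an unadjusted p under 0.05. Those 2 were Nckap1l, the blood-cell subunit of the WAVE complex, at -0.61 (SE 0.20) and Wasf2 at -0.25 (SE 0.10). Pak3, a neuronal kinase bound by Rac, gave 0.27 (SE 0.12) and Baiap2 -0.19 (SE 0.09).

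Markers of several cell types were lower on the arrays labelled cKO together with Dock5, and their part in the Dock5 value was not tested. Dock5 has been studied in oligodendrocytes and myelin, and Dock2 and Dock8 in immune cells, so these lists stand beside all 3. No list had a member with an adjusted p under 0.05. The lists were chosen with earlier results of these data known, so their counts are a description and no independent evidence. Of all tested genes, 4.35% were lower and 3.19% higher at an unadjusted p under 0.05. Of 12 tested genes of myelinating oligodendrocytes 10 were lower and 2 higher, with a median of -0.53 and 6 lower at an unadjusted p under 0.05. With the mean of each gene's probes in place of the brightest, the median was -0.96. Their summed signal, in multiples of the array's 75th percentile, was 149.7 to 174.0 on the arrays labelled cKO and 164.2 to 220.7 on the controls, so the sums overlapped. Cnp, an enzyme of myelin sheaths, gave -0.98 (SE 0.11, adjusted p = 0.074 by limma) and Enpp6, a marker of newly formed oligodendrocytes, -1.52 (SE 0.22). The 2 higher genes, named after their values were seen, were Mbp at 0.16 (SE 0.09) and Mog at 0.10 (SE 0.14). Mbp read 2.43, 2.34 and 2.25 on the arrays labelled cKO and 2.16, 2.21 and 2.16 on the controls. All 6 genes of oligodendrocyte precursors were lower, with a median of -0.17 and sums of 28.9 to 33.9 against 38.9 to 40.1, led by Gpr17 at -0.66 (SE 0.12).

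All 14 microglial genes were lower, with a median of -0.57 and 9 lower at an unadjusted p under 0.05. Without replicate 3 of the arrays labelled cKO the median was -0.38. Their summed signal was 220.7 to 246.2 on the arrays labelled cKO and 238.2 to 282.8 on the controls, again with overlap. The fractalkine receptor Cx3cr1 gave -0.82 (SE 0.18) and the complement gene C1qb -0.58 (SE 0.13). Array by array, the microglial median relative to the controls was -0.21, -0.60 and -0.92 for replicates 1, 2 and 3 of the arrays labelled cKO.

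All 13 astrocyte genes were lower, with a median of -0.46, 12 lower at an unadjusted p under 0.05 and sums of 111.4 to 132.1 against 157.6 to 185.4. The filament gene Gfap gave -1.15 (SE 0.15), and the water channel gene Aqp4 -0.46 (SE 0.09). All 6 listed genes of layer 4 neurons, the cells that receive touch input in this area, were lower, with a median of -0.83. All 6 had an unadjusted p under 0.05, against 4.35% of all tested genes lower at that p. This short list too was chosen with earlier results known, so its count is no independent evidence. Its sums were 14.6 to 20.9 against 25.4 to 29.1. Rspo1 gave -1.44 (SE 0.17) and Kcnab3 -1.07 (SE 0.21). The 14 general neuron genes had a median of 0.00, with 2 lower and 2 higher at an unadjusted p under 0.05, and the 9 endothelial genes a median of -0.07 with 0 in either direction at that p. The 7 tested lymphocyte genes had a median of 0.06, with 1 lower at an unadjusted p under 0.05. The 4 red blood cell genes had a median of 0.37, with 0 in either direction at that p. That median rested on single arrays: it was 0.13, 0.09 and 0.87 without replicates 1, 2 and 3 of the arrays labelled cKO, and 0.37, 0.57 and 0.10 without control replicates 1, 2 and 3. All listed markers of neurons, layer 4, astrocytes and microglia passed the background filter, as the tissue label has it. Opalin of the oligodendrocyte list and Cd3g of the lymphocyte list had no tested probe under these names.

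**Figure D4:**
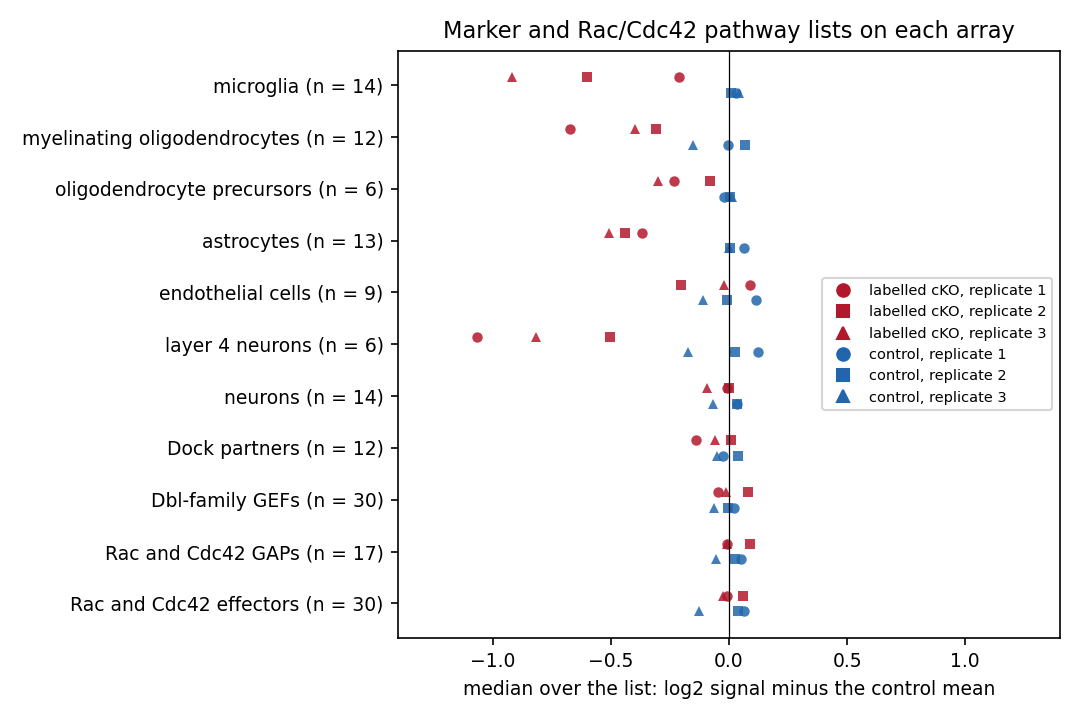
Median over each gene list of the log2 signal minus the control mean, per array, with n the genes tested in each list; red marks are the arrays labelled cKO, blue marks the controls, and the shape gives the replicate. Microglia, both oligodendrocyte lists, astrocytes and layer 4 neurons lie lower on all 3 arrays labelled cKO, whereas the neuron, endothelial and Rac and Cdc42 pathway lists lie near 0.

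Likeness to Dock5 was measured by Pearson's correlation over the 6 arrays with each of 190 listed genes. The 5 highest were Rhoj at 0.979, Arhgap15 at 0.944, Enpp6 at 0.943, Kcnab3 at 0.940 and Cnp at 0.938. Over 2 groups of 3 arrays, any steady gap between the groups gives a high value, whatever its size: that of Rhoj was -0.18 on the log2 scale, against -1.94 for Dock5. All of these genes share the same 6 RNA samples.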

How the data were processed

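Processed intensity per spot was read from the deposited scanner files of 6 arrays. Per the file headers, they were written by Feature Extraction 10.5.1.1, which subtracts background and replaces signals not above it by a surrogate. The authors' deposited matrix holds log2 values, of which 95% lie within 0.00235 of median-centred quantile-normalized log2 signals. How the authors made it is not given in the sources used, its scale and centring are inferred, and it served as an alternative. Per the labels' protocols, RNA was amplified and labelled with Cy3.

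The values were log2 processed intensity minus each array's 75th percentile, without control or outlier spots (112 to 198 per array), with repeated spots averaged. Probes well above background on at least 3 of 6 arrays were tested, 50030 of 55681, and all 15 Dock probes passed. The Dock8 probe and 1 Dock2 probe passed mainly through the control arrays. The fit used limma 3.58.1 in R 4.3.3 (lmFit, then eBayes; two-sided). P-values were adjusted by Benjamini-Hochberg over every tested probe, or over 32697 genes by their brightest probe. Folds are 2 raised to the log2 difference. The fit was tested on simulated data. Gene names were updated through a RefSeq table of assembly GRCm38.p6 (28331 probes by accession, 428 by another accession of the same spot, 2034 by symbol, 162 by synonym), and 24726 probes kept the file's name. Coordinates and sequences are the files' own. An exact permutation test of 3 against 3 could not go below p = 0.1 and was not used.

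The members and lists were chosen with earlier results of these data known. Every probe of a member is given. Of each pathway list up to 4 genes, and of each marker list up to 2, are named by the smallest p. The alternatives were other scalings, background corrections, filters, variance models, array weights, slide row, Y-linked signal, a replicate block, each array left out, the mean of a gene's probes and the authors' matrix. Some listed genes are not reported here. Arhgap24, Opalin and Cd3g had no tested probe under these names.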

Additional observations from a re-analysis of the deposited data

How the results depend on the processing

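The median difference of the 15 Dock probes (0.02) was -0.086 with array weights and -0.13 within slide row 1 as within row 2. With the Y-linked term, which sets the arrays labelled cKO against control replicate 2 alone, it was -0.037. The median ran from -0.090 to 0.014 when each array was left out in turn. Under either normexp setting the count of Dock probes with an adjusted p under 0.05 was 1 in place of 0. On the whole array 91 and 85 probes were then called. The count was also 1 with an intensity trend and robust variances (119) and with array weights (287). At an adjusted p under 0.1 in place of 0.05 it was 1 as well (37). Each time the probe was that of Dock5, on which the family was picked, so these calls are no evidence for its difference. With any single array left out the count stayed at 0. The same-numbered samples did not deviate together (correlations of residuals -0.17, 0.07 and 0.16). With the replicate number as a block the count was 0, the median 0.02 and the Dock5 difference -1.94, and the labels do not say that the number pairs samples. The count of probes lower without overlap (4) was 2 under median centring and 4 to 6 without single arrays, and the count higher (0) was 0 to 1: a Dock4 probe without replicate 3 of the arrays labelled cKO, and a Dock3 probe without control replicate 2. Over all 22 alternatives the median of the Dock probes took both signs, from -0.13 to 0.03. The cause of these shifts was not tested. Dock1, Dock5, Dock8 and 1 probe each of Dock2 and Dock6 were below 0 under every alternative run, and the remaining 10 probes took both signs. All alternatives reuse these same arrays, on which Dock5 was also picked. A kept sign, for these probes or for the lists below, is therefore no evidence. The Dock8 probe and this Dock2 probe also passed the filter mainly through the control arrays. The list medians of microglia, astrocytes, both oligodendrocyte stages and layer 4 neurons were below 0 in all 9 alternatives, those of microglia from -0.75 to -0.38. The medians of the Dbl, effector, neuron and endothelial lists took both signs, between -0.18 and 0.04. The median of the direct DOCK partners was below 0 in all 9, from -0.087 to -0.003. That of the GTPase-activating proteins was above 0 in all 9, from 0.017 to 0.090. Signal over background limits the Dock2 and Dock8 probes, and 1 probe stands for Dock5.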
